A study of Mus musculus with 2 samples.

Results

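Adhesion G protein-coupled receptors (GPCRs) were examined in eosinophils of the mouse bone marrow. The group consisted of 6 genes of 23343, taken from the deposited tables by their gene symbols, and all 6 were found. They were Emr1, Emr4, Cd97, Gpr97, Gpr56 and Lphn1, which newer nomenclature calls Adgre1, Adgre4, Adgre5, Adgrg3, Adgrg1 and Adgrl1. Poly(A) RNA was sequenced from 2 independent sorts of cells carrying both CCR3, the eotaxin receptor, and SiglecF, a sialic acid-binding lectin, from the marrow of naïve, untreated C57BL6J mice, with the marrow pooled before sorting. Both libraries belong to 1 group with no second condition, so the results are levels and the agreement of the sorts. How many mice were pooled, and their age and sex, is information not given in the sources used here.

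Adhesion GPCRs combine a long extracellular part, which binds matrix or other cells, with a membrane-spanning part that couples to G proteins. Most are cut during synthesis at a proteolysis site next to the membrane, and the pieces stay together until a pull or a ligand exposes a tethered peptide that activates the receptor. On leukocytes the EGF-TM7 subgroup, whose extracellular part carries epidermal growth factor-like repeats, is best known, and F4/80, the product of Emr1, is a classical surface antigen of mouse macrophages that eosinophils also carry.

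The deposited counts summed to 10087743 reads in sort 1 and 9264150 in sort 2. Levels are given in RPKM, reads per kilobase of transcript scaled to sequencing depth, and a gene was called detected at 1 RPKM or more in both sorts. The 5 eosinophil markers checked were Ccr3, Siglec5, which is the SiglecF gene, Il5ra, Prg2 and Epx. All 5 were detected, beside 30.2% of all genes, but Ccr3 and Siglec5 encode the proteins the cells were sorted on. Prg2, the granule major basic protein, had 911 RPKM in sort 1 and 1339 in sort 2. Markers of neutrophils were abundant too, with all 9 of those found in the tables detected, beside the same 30.2% of all genes.

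Of the 6 receptors 5 were detected, and 30.2% of all genes met the same minimum. Levels fell into 3 tiers. Emr1, Cd97 and Emr4, the EGF-TM7 receptors, lay between 39.9 and 72.7 RPKM, Gpr97 and Gpr56 between 2.07 and 7.73, and Lphn1 near 0.2.

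**Figure D1:**
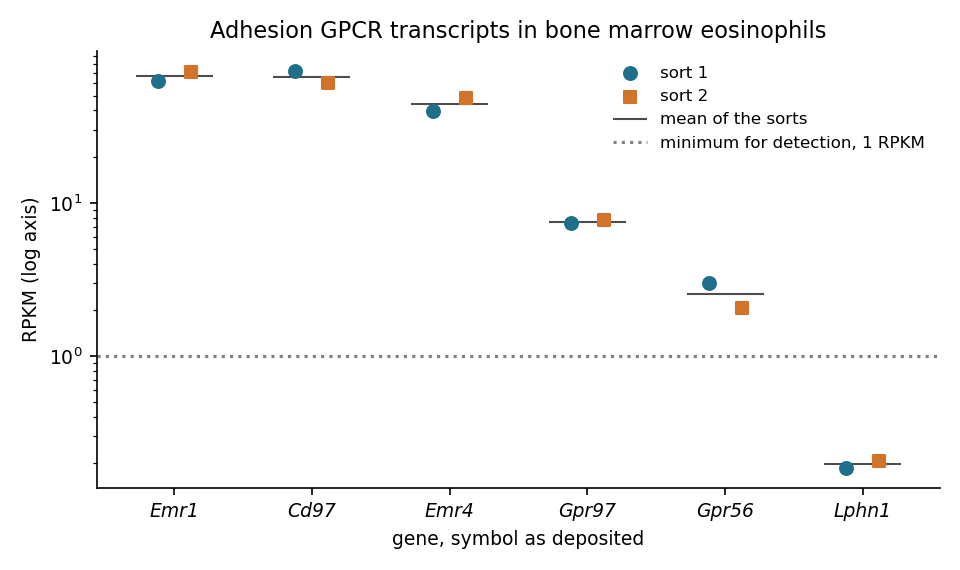
Level of each receptor in RPKM on a log axis, with a circle for sort 1, a square for sort 2 and a line for their mean; the dotted line is the 1 RPKM minimum. The EGF-TM7 genes Emr1, Cd97 and Emr4 sit between 39.9 and 72.7 RPKM, and Lphn1 sits below the minimum in both sorts.

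Emr1 encodes F4/80. It had 62.3 RPKM from 8188 reads in sort 1 and 70.9 RPKM from 9343 reads in sort 2, a mean of 66.6 ± 6.08 (SD, n = 2). By mean RPKM it ranked 127 of all genes. The table gives Emr1 as 1 row at chr17:57358686-57483529 on the plus strand (mm10), and its exons overlap those of no other gene in the GENCODE M21 annotation of the same build.

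Cd97 encodes a receptor present on most leukocytes, for which the complement regulator CD55 is a ligand. It had 72.7 RPKM from 8990 reads in sort 1 and 59.9 RPKM from 7424 reads in sort 2, a mean of 66.3 ± 9.04 (SD, n = 2), which placed it at rank 128, next to Emr1. Which of Emr1 and Cd97 was higher depended on the sort, since Emr1 was 0.857 times Cd97 in sort 1 and 1.18 times in sort 2. Their ranges over the sorts overlapped, so their order was not resolved. The Cd97 row pools 4 RefSeq transcripts at chr8:83723251-83741311 on the minus strand, so isoforms that differ in the number of EGF-like repeats cannot be separated. Of the exonic bases of these transcripts 24.7% are shared with Ddx39 on the opposite strand. The libraries were stranded, with the strand setting of the counting not given in the sources used here, so reads of this stretch may belong to either gene. Ddx39, an RNA helicase, had 5.25 RPKM in sort 1 and 4.84 in sort 2, well below Cd97.

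Emr4, also called FIRE, is an EGF-TM7 receptor of mouse myeloid cells. It had 39.9 RPKM from 5641 reads in sort 1 and 48.5 RPKM from 6874 reads in sort 2, a mean of 44.2 ± 6.08 (SD, n = 2). It was below both Emr1 and Cd97 in each sort, and its highest value lay under the lowest of either. Emr4 and Emr1 are on the same strand of chromosome 17, 1505 kb apart with 65 other genes of the tables between them. The row of Emr4 is at chr17:55749984-55853662 on the plus strand, and its exons overlap no exon of another gene.

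Gpr97 encodes a receptor of granulocytes and other immune cells. It had 7.35 RPKM from 726 reads in sort 1 and 7.73 RPKM from 765 reads in sort 2, a mean of 7.54 ± 0.265 (SD, n = 2), with a gap between the sorts of 4.97% of the mean. Emr4 exceeded it by 5.43-fold in sort 1 and 6.28-fold in sort 2. Although well below the EGF-TM7 genes, it ranked 1957, above 91.2% of all genes in sort 1 and 92.0% in sort 2.

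Gpr56 encodes a receptor for type III collagen that is known from the developing cerebral cortex, from cytotoxic lymphocytes in humans and from blood stem cells. It had 2.998 RPKM from 435 reads in sort 1 and 2.07 RPKM from 302 reads in sort 2, a mean of 2.54 ± 0.653 (SD, n = 2). The sorts differed by 36.4% of the mean, more than for any other of the 6 receptors. Gpr97 was above it in each sort, by 2.45-fold in sort 1 and 3.73-fold in sort 2.

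Gpr56 was the 1 receptor of the 6 with more than 1 row in the tables. Its rows differ in where the transcript starts, the upstream start lying at base 94977109 of chromosome 8 and the downstream start 7.29 kb further on, and both end at base 95014208. The upstream row held 310 of 435 reads in sort 1, or 71.3% (95% Wilson interval 66.8 to 75.3), and 258 of 302 in sort 2, or 85.4% (81.0 to 89.0). The downstream row held 125 reads in sort 1 and 44 in sort 2. The upstream row thus took most of the reads in both sorts, and the intervals of its share did not overlap. The transcripts share 3287 exonic bases, 90.9% of the upstream one, and only 329 upstream and 287 downstream bases are their own. The way shared reads were divided between rows, not given in the sources used here, also bears on this share, so the split is less certain than its counting interval.

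**Figure D2:**
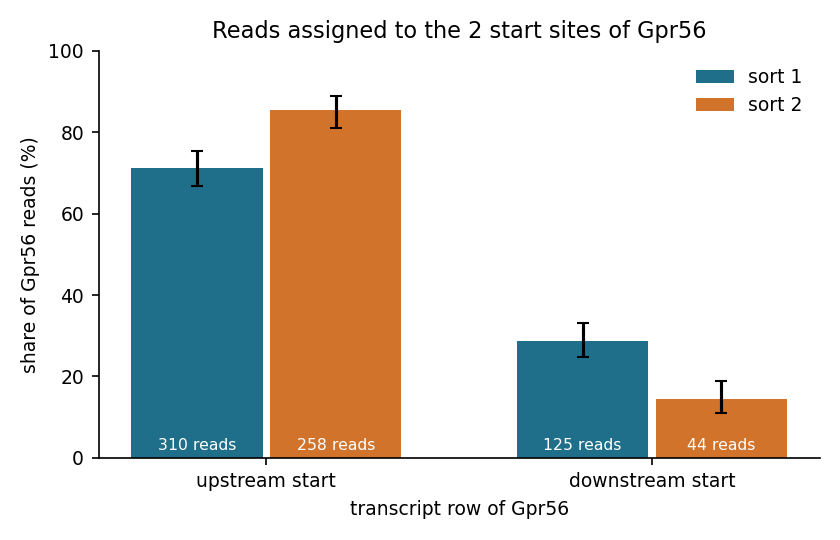
Share of the Gpr56 reads in each of its 2 transcript rows, as bars for sort 1 and sort 2 with 95% Wilson intervals and the read counts in the bars. The upstream start held 71.3% of the reads in sort 1 and 85.4% in sort 2.

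The sequences in front of these starts are shown because the row split separates the pair of Gpr56 starts and because Gpr97 begins just behind Gpr56. Each run is the 250 bases that end right before a start, from the RefSeq table on GRCm38.p6, all on the plus strand, and starts of 4 of the 6 genes were in that table. Capitals mark GATA, the core letters read by GATA factors, and GAGGAA, letters that occur in sites of the PU.1 type, on either strand. The windows are chr8:94976859-94977108 (upstream Gpr56), chr8:94984149-94984398 (downstream Gpr56), chr8:95017442-95017691 (Gpr97), chr17:55749734-55749983 (Emr4) and chr8:83899848-83900097 (Lphn1).
Gpr56 upstream: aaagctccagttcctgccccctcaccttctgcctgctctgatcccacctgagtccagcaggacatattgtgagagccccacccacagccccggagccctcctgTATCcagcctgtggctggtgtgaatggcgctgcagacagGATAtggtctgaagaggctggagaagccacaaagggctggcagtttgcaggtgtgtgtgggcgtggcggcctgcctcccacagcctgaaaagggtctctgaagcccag
Gpr56 downstream: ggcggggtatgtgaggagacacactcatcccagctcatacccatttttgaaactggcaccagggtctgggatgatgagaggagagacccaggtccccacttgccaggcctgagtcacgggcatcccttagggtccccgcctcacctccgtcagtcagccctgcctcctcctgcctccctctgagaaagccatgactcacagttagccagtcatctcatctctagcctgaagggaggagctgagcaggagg
Gpr97: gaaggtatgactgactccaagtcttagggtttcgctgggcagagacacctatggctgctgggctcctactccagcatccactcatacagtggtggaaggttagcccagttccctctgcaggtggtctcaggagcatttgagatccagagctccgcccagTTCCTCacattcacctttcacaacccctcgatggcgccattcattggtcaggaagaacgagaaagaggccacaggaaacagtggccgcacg
Emr4: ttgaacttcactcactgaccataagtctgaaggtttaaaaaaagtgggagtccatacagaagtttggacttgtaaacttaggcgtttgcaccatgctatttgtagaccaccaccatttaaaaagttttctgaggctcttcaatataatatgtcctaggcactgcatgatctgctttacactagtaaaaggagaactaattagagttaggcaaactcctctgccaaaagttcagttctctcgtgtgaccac
Lphn1: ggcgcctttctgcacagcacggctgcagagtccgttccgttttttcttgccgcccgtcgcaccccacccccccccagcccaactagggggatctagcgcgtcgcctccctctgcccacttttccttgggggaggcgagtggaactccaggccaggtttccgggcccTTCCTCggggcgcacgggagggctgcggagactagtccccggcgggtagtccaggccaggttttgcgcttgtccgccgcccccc

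GATA occurred at 2 places before the upstream start of Gpr56, 147 and 108 bases ahead of it, and at none of the other windows shown. Of all 32851 promoter windows of the same length 53.6% hold GATA, so its presence is common. GAGGAA occurred once before Gpr97, 91 bases ahead of its start, and once before Lphn1, 84 bases ahead, against 23.3% of all windows. No window held both motifs. In base composition the windows ran from 39.6% GC for Emr4 to 68.8% for Lphn1, with 55.2% for Gpr97, 60.8% for the upstream and 59.2% for the downstream start of Gpr56, and a median of 52.4% over all windows.

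Lphn1 encodes a latrophilin, a receptor of nerve cells that binds the black widow toxin alpha-latrotoxin. It had 0.187 RPKM from 62 reads in sort 1 and 0.208 RPKM from 69 reads in sort 2, a mean of 0.197 ± 0.0145 (SD, n = 2). The sorts agreed at this low level, which lay above 53.2% of all genes in sort 1 and 54.7% in sort 2, many of them with no read. Gpr56 was 16.0 times higher in sort 1 and 9.99 times in sort 2. Of the exonic bases of Lphn1 13.5% are shared with Gm10644 on the opposite strand, so part of the few reads could belong to that gene.

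Of the 5 steps between neighbours in this order, 4 had ranges over the sorts that did not overlap, the exception being Emr1 and Cd97. From top to bottom the mean of Emr1 was 338 times that of Lphn1. With 2 sorts such separation describes these libraries and carries no test.

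Some of the receptor genes lie close together on their chromosome but were at unlike levels. On chromosome 8 Lphn1, at chr8:83900098-83941954, begins 159 kb from Cd97 on the other strand with no gene of the tables lying wholly between them, with 0.187 RPKM in sort 1 and 0.208 in sort 2, where Cd97 had 72.7 in sort 1 and 59.9 in sort 2. Further along the chromosome, Gpr56 and Gpr97 follow each other on the plus strand, Gpr97 (chr8:95017692-95045249) starting 3.48 kb behind the end of Gpr56.

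Across the adhesion GPCR family these receptors made up most of the signal. Of 30 mouse family genes listed, 29 were found (Gpr112 was not analysed here). Detection held for 7 of the 29, or 24.1%, beside 30.2% of all genes. The family as a whole was thus not detected more often than other genes. The median over the 29 was 0.0662 RPKM in sort 1 and 0.0307 in sort 2, beside 0.108 in sort 1 and 0.0896 in sort 2 over all genes. The 6 receptors took 90.7% of the family's reads in sort 1 (95% Wilson interval 90.4 to 91.1) and 90.5% in sort 2 (90.1 to 90.8), and 95.4% of its summed RPKM in sort 1 and 94.97% in sort 2. Emr1, Emr4 and Cd97 alone took 86.1% of the family's reads in sort 1 and 86.3% in sort 2. The 6 receptors were named with earlier results of these data known, so these shares are a description only.

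**Figure D3:**
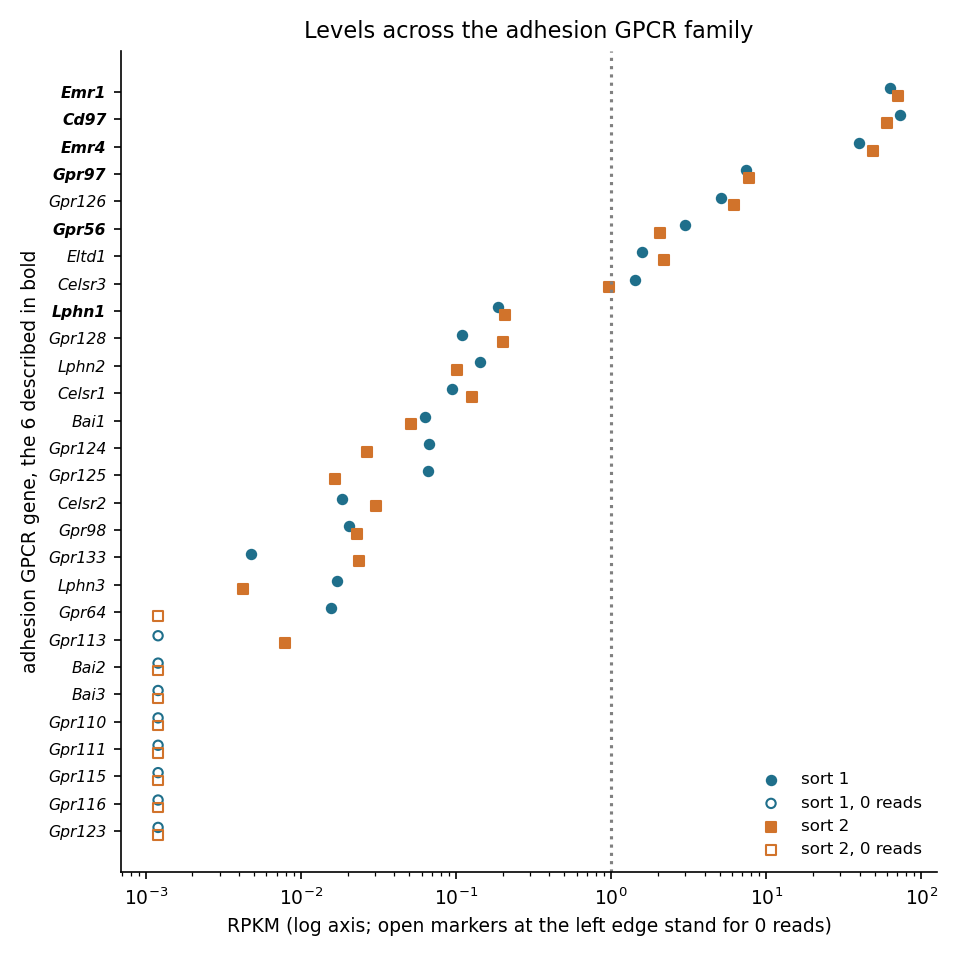
Levels of 28 of the 29 adhesion GPCR genes in RPKM on a log axis, with circles for sort 1, squares for sort 2 and open markers for 0 reads; the 6 receptors described are in bold and the dotted line is 1 RPKM. Gpr126 and Eltd1 lie above the minimum beside 5 of the 6 bold genes, and 7 genes have no read in either sort.

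Outside the 6 receptors, 2 of 23 family genes were detected. Gpr126, which in mice is needed for Schwann cells to form myelin, had 5.14 RPKM from 1354 reads in sort 1 and 6.15 RPKM from 1624 reads in sort 2, between Gpr97 and Gpr56. Eltd1, an endothelial receptor of the latrophilin subfamily, had 1.57 RPKM in sort 1 and 2.18 in sort 2, so its range overlapped that of Gpr56. Both were above Lphn1, the latrophilin among the 6 receptors, in each sort.

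Celsr3, a receptor of the flamingo cadherin type that guides axons, had 1.42 RPKM in sort 1 and 0.968 in sort 2, on either side of the minimum. Lower still were Gpr128, Lphn2, Celsr1, Bai1, Gpr124, Gpr125, Celsr2 and Gpr98, each with at least 10 reads over both sorts and at most 0.201 RPKM in any. For 11 family genes fewer than 10 reads were counted in all. Among them Gpr123, Bai2, Bai3, Gpr110, Gpr111, Gpr115 and Gpr116 had none, and a count of 0 allows up to 3 reads. By subfamily, 3 of 3 EGF-TM7 genes, 3 of 6 genes of the Gpr56 and Gpr97 subfamily and 1 of 4 latrophilin genes were detected.

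Transcripts for some known ligands and surface partners were also present in these libraries, which cannot show whether the same cells carry them. Of 18 such genes measured, 7 were detected, or 38.9%, beside 30.2% of all genes. Itgb3, an integrin beta subunit, led with 33.5 RPKM in sort 1 and 27.9 in sort 2. Cd55, the ligand of Cd97, had 9.14 RPKM in sort 1 and 15.2 in sort 2. The tetraspanin Cd9 had 15.2 RPKM in sort 1 and 12.4 in sort 2, and the integrin subunit Itgb1 had 12.9 in sort 1 and 10.3 in sort 2. Chosen after their values were seen, Cd81, a tetraspanin that associates with Gpr56, had 13.3 RPKM in sort 1 and 9.74 in sort 2, and Tgm2, a transglutaminase that binds Gpr56, had 5.06 in sort 1 and 4.87 in sort 2. Itgav, an integrin alpha subunit also chosen after its values were seen, was the remaining detected gene, with 4.01 RPKM in sort 1 and 4.38 in sort 2. Several ligands of the 6 receptors were close to absent from the counts. Col3a1, the collagen ligand of Gpr56, had 1 read in sort 1 and 2 in sort 2, and Thy1, another ligand of Cd97, had 6 in sort 1 and 3 in sort 2. The latrophilin ligands Flrt1, Flrt2, Flrt3 and the teneurins Tenm1 to Tenm4 had at most 6 reads in any sort.

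The G proteins and effectors that these receptors can use were widely present. Of 18 listed genes 16 were detected, or 88.9%, beside 30.2% of all genes, with medians of 11.4 RPKM in sort 1 and 12.0 in sort 2. Gnai2, an inhibitory G protein alpha subunit of leukocytes, had 85.8 RPKM in sort 1 and 75.3 in sort 2. Gnas, the stimulatory alpha subunit, had 38.9 RPKM in sort 1 and 46.9 in sort 2. Arhgef1, which links the G12 and G13 proteins to the small GTPase RhoA, had 47.3 RPKM in sort 1 and 32.5 in sort 2, and Rhoa itself 36.2 in sort 1 and 43.0 in sort 2. Chosen after their values were seen, Gna13 had 10.5 RPKM in sort 1 and 11.5 in sort 2 and Gna12 had 4.96 in sort 1 and 4.45 in sort 2. Below the minimum were Gnao1, the alpha subunit Go, with 37 reads in sort 1 and 9 in sort 2, and Arhgef12, another RhoA activator, with 58 in sort 1 and 24 in sort 2. These lists were drawn up from known biology of the family, but with earlier results of these data known. Their shares are thus a description only, and they show transcripts only.

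**Figure D4:**
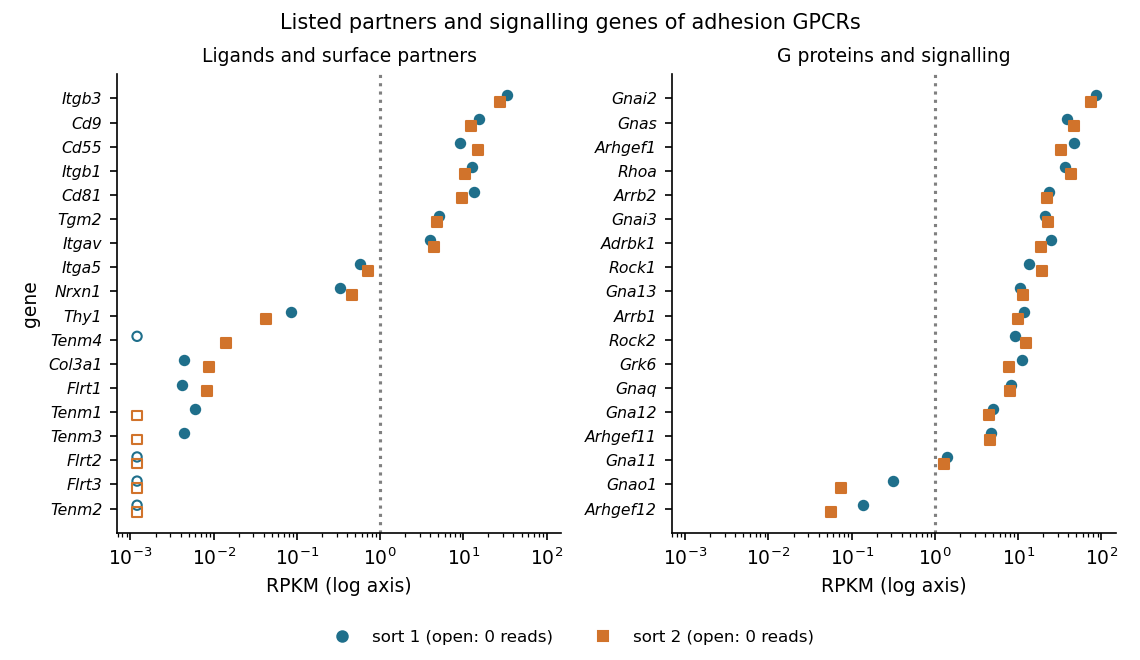
Levels in RPKM on log axes of 18 genes for ligands and surface partners (left) and 18 genes for G proteins and signalling (right), with circles for sort 1, squares for sort 2 and open markers for 0 reads; the dotted line is 1 RPKM. Of the left list 7 genes and of the right list 16 lie above the minimum in both sorts.

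The sorts were compared receptor by receptor to show how far the levels repeat. The ratio is sort 1 over sort 2, from read counts scaled by the trimmed mean of M values (TMM), and the exact two-sided binomial test on the reads compares the libraries with sampling noise, not conditions. A gene was called at a Benjamini-Hochberg adjusted p under 0.05, over 12347 genes, and a fold of at least 2. None of the 6 receptors was called, beside 8.41% of all genes tested, and 4 had an unadjusted p under 0.05.

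Without a fold minimum 4 of 6 receptors passed, compared with 44.4% of all genes. The 4 split evenly in direction, and over all genes 21.6% passed with more in sort 1 and 22.8% with more in sort 2. Emr1 and Emr4 were lower in sort 1, with folds of 0.836 (95% exact interval 0.811 to 0.861) and 0.783 (0.756 to 0.811) and adjusted p of 1.01e-30 and 9.88e-41. Cd97 and Gpr56 were higher in sort 1, with folds of 1.16 (1.12 to 1.19) and 1.37 (1.18 to 1.60) and adjusted p of 7.25e-19 and 1.08e-04 from the exact binomial test. Gpr97 had a fold of 0.905 (0.817 to 1.003) and Lphn1 of 0.857 (0.598 to 1.23), with adjusted p of 0.108 and 0.508 in the same exact test. The intervals cover counting error only, and those of Gpr97 and Lphn1 leave room for differences of the size seen for Emr1.

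With an allowance for variation between libraries none of these differences passed. The exact test of edgeR with the common dispersion of these libraries, a biological coefficient of variation of 0.232, gave an adjusted p of 1 for each of the 6 receptors and an unadjusted p under 0.05 for none. It called 0.267% of all genes. That dispersion was estimated from the same libraries and already holds their differences. Among the partner and signalling genes Gnao1 and Arhgef12 were called by the exact binomial test, with log2 ratios of 1.97 and 1.21 and adjusted p of 2.29e-04 and 1.41e-03, both higher in sort 1. In edgeR's exact test their adjusted p were 0.315 and 0.817.

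The ratios between the sorts moved with the GC content of the transcript. Among genes with at least 100 reads over both sorts the Spearman correlation was 0.538, across 8675 genes, which share both libraries. Emr4 and Emr1, lower in sort 1, had 39.2% and 47.2% GC, and Cd97 and Gpr56, higher in sort 1, had 53.4% and 56.3%. Gpr97 and Lphn1, at 53.5% and 59.1%, did not follow the trend. With the median ratio of the 500 genes nearest in GC content taken off, the log2 ratio became 0.02 for Emr4, against -0.35 before, 0.05 for Cd97, against 0.21, and 0.16 for Gpr56, against 0.46. It became -0.16 for Emr1, against -0.26, while that of Gpr97 moved to -0.30, against -0.14, and that of Lphn1 to -0.61, against -0.22. With GC content corrected, the exact binomial test gave adjusted p under the threshold for Emr1 (1.83e-12), Gpr97 (4.48e-04) and Lphn1 (0.0474), and not for Emr4 (0.496), Cd97 (0.0502) and Gpr56 (0.2496). Which receptors differed between the sorts thus depended on this correction.

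**Figure D5:**
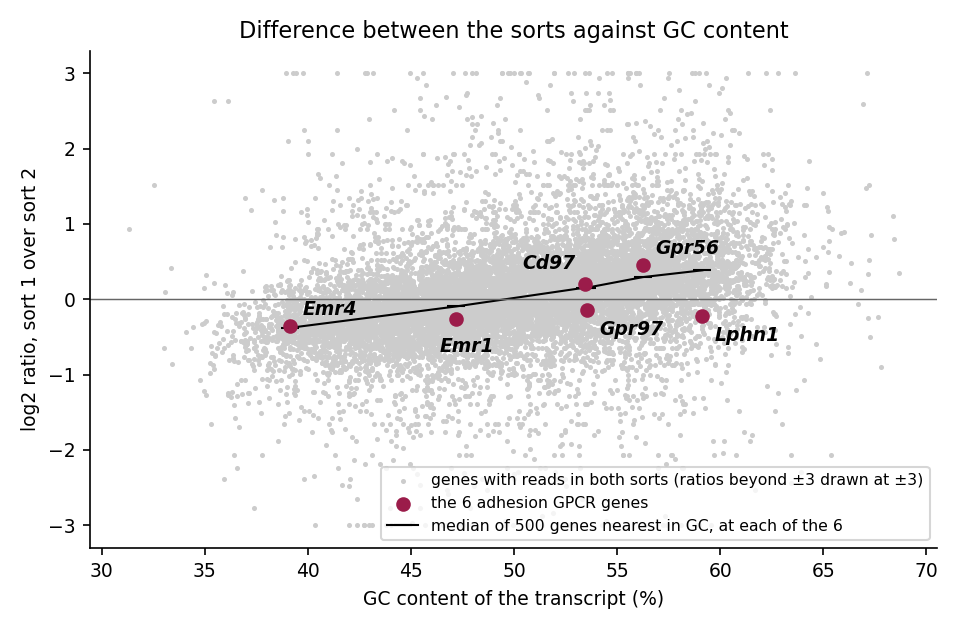
Log2 ratio of sort 1 over sort 2 against transcript GC content, with the tested genes that had reads in both sorts and a GC value in grey (ratios beyond 3 in either direction are drawn at 3), the 6 receptors as large points and the median of the 500 genes nearest in GC as a line. Emr4 lies on the line, Emr1, Gpr97 and Lphn1 below it and Gpr56 and Cd97 slightly above it.

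Other cells of the marrow also carry these receptors, and their markers were read beside the levels. In bulk RNA, fewer cells of a type and less RNA per cell cannot be told apart. Emr1 and Emr4 are receptors of macrophages, and 5 of 14 monocyte and macrophage markers were detected, or 35.7%, beside 30.2% of all genes. The summed level of the 14 was 80.4 RPKM in sort 1 and 62.9 in sort 2. Ly6c2 led that list with 38.1 RPKM in sort 1 and 33.0 in sort 2, while the median of the list was 0.716 RPKM in sort 1 and 0.482 in sort 2 and C1qa had 16 reads in sort 1 and none in sort 2. Of the 14, 11 had a ratio in favour of sort 1, beside 6180 of 12347 genes tested, while Emr1 and Emr4 were lower in sort 1. In the exact binomial test 7 of the 11 passed the adjusted p at any fold, beside 21.6% of all genes. Another 2 passed in the direction of Emr1 and Emr4, beside 22.8% of all genes. They were Ccr2, with 51 reads in sort 1 and 93 in sort 2, and Cx3cr1, with 2 reads in sort 1 and 26 in sort 2, both chosen after their values were seen.

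Neutrophil markers, with Ngp the highest at 353 RPKM in sort 1 and 210 in sort 2, summed to 856 RPKM in sort 1 and 656 in sort 2, and 6 of 9 passed with more in sort 1, beside 21.6% of all genes. Mpo and Elane, chosen after their values were seen, passed with more in sort 2, with 161 and 66.9 RPKM in sort 1 against 173 and 87.7 in sort 2. Cd97 was higher in sort 1 before the GC correction and did not pass after it. The eosinophil markers summed to 1178 RPKM in sort 1 and 1655 in sort 2 and all 5 were lower in sort 1, 4 of them past the adjusted p, beside 22.8% of all genes with more in sort 2. Emr1 was lower in sort 1 with and without the GC correction, and Emr4 only without it. These marker ratios and calls are from the exact binomial test without the GC correction. In edgeR's exact test Cd163 alone of the monocyte and macrophage markers passed, with an adjusted p of 0.0492 and more in sort 1. No neutrophil or eosinophil marker passed in that test. The part of these cell types in the receptor levels was not tested.

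Gpr56, with 2.998 RPKM in sort 1 and 2.07 in sort 2, is known in lymphocytes and progenitors, and their markers were read beside it. For comparison with the counts below, 30.2% of all genes were detected. Of 12 T and NK cell markers 1 was detected, Nkg7, with 9.81 RPKM in sort 1 and 11.0 in sort 2, and Eomes and Prf1 were at 0 in a sort. The 12 summed to 11.6 RPKM in sort 1 and 11.9 in sort 2, most of it Nkg7. Of the 8 with at least 10 reads over both sorts, 7 had a ratio in favour of sort 1, Nkg7 being the exception. Over all genes tested, 6180 of 12347 did. In the exact binomial test without the GC correction 2 of the 8 passed the adjusted p at any fold, beside 21.6% of all genes. Both had more in sort 1, and neither passed in edgeR's exact test. Of 8 stem and progenitor markers 3 were detected, led by Meis1 with 3.67 RPKM in sort 1 and 3.84 in sort 2. That list summed to 8.72 in sort 1 and 8.61 in sort 2. Of its 6 genes with at least 10 reads over both sorts, 2 had a ratio in favour of sort 1 and 4 in favour of sort 2. Nkg7 and Meis1 were above Gpr56 in each sort, and no other marker of these lists was above it in both. Kit, chosen after its values were seen, was above Gpr56 in sort 2 only, with 2.47 RPKM in sort 1 and 2.73 in sort 2. The part of these cells in the Gpr56 level was not tested. For the remaining lists, basophil and mast cell markers summed to 30.4 RPKM in sort 1 and 32.3 in sort 2 (6 of 8 detected, with Cpa3 the highest by mean and Hdc above it in sort 1), B cell markers to 8.44 in sort 1 and 5.64 in sort 2 (2 of 6, led by Cd79b), dendritic cell markers to 2.502 in sort 1 and 2.346 in sort 2 (1 of 7, Itgax) and erythroid markers to 2.24 in sort 1 and 3.98 in sort 2 (0 of 6, with Hba-a1 the highest by mean and Hbb-b1 above it in sort 1).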

How the data were processed

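Libraries were stranded poly(A) libraries made with dUTP, per the labels' protocols. Reads were aligned with STAR 2.4.0c to mm10, per the submitters' processing notes; how and with which program reads were counted is not stated there. Deposited read counts are whole numbers and stand beside RPKM in 26099 rows, each row holding RefSeq transcripts that begin and end at the same bases. In the RPKM the authors deposited, the depth that reads were divided by is larger than the table total, which makes up 24.9% of it in sort 1 and 22.8% in sort 2. RPKM values are thus lower than the table's own total would give, and more so in sort 2.

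Counts and RPKM were summed per gene symbol into 23343 genes. Members and lists were chosen with earlier results of these data known. The quasi-likelihood test of edgeR needs replicated groups, so sort 1 and sort 2 were compared by a binomial test (exact, two-sided) of counts scaled by TMM factors (edgeR 4.0.16, SciPy 1.17.1), over genes whose reads in the 2 sorts sum to 10 or more. It was tested on simulated data. The sorts are called independent in the series' design text, which does not say that they came from different mice, so the SD measures the spread between these libraries. Transcript length and GC content came from GENCODE M21, matched by RefSeq accession for 98.5% of tested genes, and promoters from RefSeq (GRCm38.p6). Named genes were the 6 receptors, every other family gene with at least 10 reads, and the highest of each marker list. The 4 highest partner and signalling genes of each list were also named, with any that were called. Col3a1, Thy1, the Flrt and Tenm genes, C1qa, Cd163, Eomes and Prf1 lie outside this rule and were named with their values known. Of the family genes, 1 is counted but not reported by name here. Intervals, and the limit of 3 reads for a count of 0, cover counting error only; PCR copies cannot be told from separate molecules here. Alternatives were DESeq2 1.42.0 size factors, total counts, other minimums and folds, the exact test of edgeR, RPKM ratios, CPM, a GC correction and each sort alone.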

Additional observations from a re-analysis of the deposited data

How the results depend on the processing

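The count of receptors detected stayed at 5 with minimums of 0.5 and 2 RPKM and in each sort alone, and was 6 at a CPM of at least 1, where Lphn1 was added. At that CPM minimum 15 of the 29 family genes were detected in place of 7. The number of all genes called between the sorts was 1038 and depended on the rule, with 526 at a minimum of 50 reads, 2264 at a fold of at least 1.5, 5481 at any fold and 33 with edgeR's exact test. The number of receptors called was 0, and 4 at any fold. With edgeR's exact test 0 of the 6 receptors passed the adjusted p at any fold, in place of 4. DESeq2 size factors, total counts and RPKM ratios, which move the ratios of the 6 receptors by nearly the same amount, left all 6 directions as they were. The GC correction, which acts gene by gene, left 5 and turned that of Emr4 to 0.025 (log2); the cause was not tested. Counted as reads per kilobase of the longest transcript, 4 of the 5 steps in the order again had ranges that did not overlap. Cd97 then came before Emr1, the pair whose order was not resolved. Ranked by CPM in place of RPKM, as a mean over the sorts, Lphn1 lay above 64.8% of all genes in place of 53.9%. Gpr56 lay above 82.5% in place of 79.1%, and Gpr97 above 89.3% in place of 91.6%. With total counts as the scale 5 receptors passed the adjusted p at any fold, and with the GC correction 3 did. No paired analysis was possible because both libraries belong to 1 group. At 62 reads in sort 1 and 69 in sort 2, Lphn1 is the receptor whose values depth limits most.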
